A study of Mus musculus with 4 samples.

Results

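The genes described here encode subunits of respiratory complexes I, II, III and V, the NADH dehydrogenase, succinate dehydrogenase, cytochrome bc1 complex and ATP synthase of the mitochondrial inner membrane. Members were all gene probes whose gene name in the scanner files began with Nduf followed by a, b, c, s or v and a number, was Sdha, Sdhb, Sdhc or Sdhd, or began with Uqcr or with Atp5 followed by a letter from a to l. This rule found 100 probes for 63 genes, among 39429 probes for 30217 genes on the array. Complex I had 37 genes, complex II 4, complex III 8 and complex V 14. No measured value entered the choice. Liver RNA from male C57BL/6J mice was hybridized to 4 one-color arrays, and all animals had eaten a high-fat diet (HFD) for 24 weeks. Drp1LiKO mice carry Drp1 flox/flox alleles and a Cre driven by the albumin promoter, which is active in hepatocytes, and Cont mice are Drp1 flox/flox littermates without that Cre, named wild type in the labels. The refed mice were fasted for 17 h by the series' design text (the methods give a slightly shorter fast) and then refed for 4 h. No feeding state is in the labels of the other 2 arrays, called fasted here because the methods describe an overnight fast. Their labels add that the raw data had been deposited before, while the file headers place all 4 arrays on 1 slide. The groups are thus Cont fasted, Drp1LiKO fasted, Cont refed and Drp1LiKO refed. The labels give no age. Each group is 1 array, and whether its RNA came from 1 mouse or a pool is not given in the sources used here.

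Electrons from NADH enter the respiratory chain at complex I and electrons from succinate at complex II, which is also an enzyme of the tricarboxylic acid cycle. Complex III passes them from ubiquinol to cytochrome c, and complex V uses the proton gradient built by the chain to make ATP. The subunits measured here are encoded in the nucleus, made in the cytosol and imported into mitochondria, where they are assembled with subunits encoded by mitochondrial DNA. Drp1, encoded by Dnm1l, is the GTPase that divides mitochondria. Hepatocytes are rich in mitochondria and use the chain to oxidize fatty acids during fasting.

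Because most of the subunit genes differed between genotypes in the same direction, their promoters were searched for short motifs of factors known to act on respiratory genes. RefSeq promoter windows around the start of each gene (GRCm38.p6) were matched to 53 of the 63 genes. The motifs were searched on both strands, and the share of 27025 genes with a window that held the motif is given as background. The NRF1 motif, a palindrome shown in capitals in the window of Uqcrc1, stood in the windows of 4 members (7.55%, against 1.07% of all genes). The GABP motif CCGGAAG stood in 13 (24.5%, against 9.93%), the YY1 motif AAGATGGCG in 7 (13.2%, against 1.64%), the ERR motif TCAAGGTCA in 2 (3.77%, against 0.466%) and the Sp1 motif GGGGCGGGG in 10 (18.9%, against 12.9%). Matches are letters in a window and not measured binding sites. The 4 windows printed here, 5′ to 3′ along the gene, are those of the gene with the lowest difference between genotypes after fasting (Atp5k, chr5:108434350-108434649, minus strand), of a core protein of complex III (Uqcrc1, chr9:108936398-108936697, plus strand), of a membrane anchor of complex II (Sdhd, chr9:50603800-50604099, minus strand) and of the gene with the highest difference after refeeding (Ndufs4, chr13:114388045-114388344, minus strand). Capitals mark the NRF1 and GABP motifs in Atp5k, the NRF1 motif in Uqcrc1, the GABP and ERR motifs in Sdhd and the YY1 motif in Ndufs4.
Atp5k: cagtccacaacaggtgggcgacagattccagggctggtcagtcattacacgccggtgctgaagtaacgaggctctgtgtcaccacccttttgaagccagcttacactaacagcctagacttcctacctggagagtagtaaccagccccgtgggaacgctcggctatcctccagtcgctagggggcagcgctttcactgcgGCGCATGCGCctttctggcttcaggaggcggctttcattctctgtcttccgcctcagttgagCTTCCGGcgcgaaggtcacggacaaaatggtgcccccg
Uqcrc1: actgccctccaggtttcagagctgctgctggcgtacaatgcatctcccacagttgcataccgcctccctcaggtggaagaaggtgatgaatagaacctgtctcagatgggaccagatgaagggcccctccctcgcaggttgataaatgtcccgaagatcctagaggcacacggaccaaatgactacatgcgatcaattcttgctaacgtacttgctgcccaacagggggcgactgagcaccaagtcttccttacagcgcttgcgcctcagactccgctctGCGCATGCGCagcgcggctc
Sdhd: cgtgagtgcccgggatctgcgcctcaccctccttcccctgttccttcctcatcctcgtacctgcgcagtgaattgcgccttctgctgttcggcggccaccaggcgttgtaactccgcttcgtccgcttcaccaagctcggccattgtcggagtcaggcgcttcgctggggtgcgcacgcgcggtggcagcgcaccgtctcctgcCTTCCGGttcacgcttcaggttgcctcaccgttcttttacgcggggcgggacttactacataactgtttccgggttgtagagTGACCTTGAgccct
Ndufs4: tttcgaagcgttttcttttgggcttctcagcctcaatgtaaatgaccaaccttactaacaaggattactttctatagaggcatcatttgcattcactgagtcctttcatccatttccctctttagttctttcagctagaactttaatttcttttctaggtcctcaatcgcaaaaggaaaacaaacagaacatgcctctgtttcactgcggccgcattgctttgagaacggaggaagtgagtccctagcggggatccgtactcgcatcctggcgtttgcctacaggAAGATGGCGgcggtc

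Members with the GABP, NRF1 or YY1 motif did not stand far from those without it. After fasting the median log2 difference between Drp1LiKO and Cont was -0.53 for the 13 genes with the GABP motif and -0.50 for the 40 without it. It was -0.56 for the 4 with the NRF1 motif and -0.51 for the other 49, and -0.61 for the 7 with the YY1 motif and -0.51 for the other 46. After refeeding these medians lay between -0.37 and -0.33. They are relative to the 75th percentile of each array. Scaling to spiked-in RNA, described below, adds about 0.78 (fasted) or 0.54 (refed) and puts all of them above 0. The ERR motif stood in 2 genes only, Atp5g3 and Sdhd, with a median of -0.26 after fasting and -0.23 after refeeding. The other 51 had -0.53 and -0.35. Sdhd also holds the GABP motif and belongs to complex II, and the part of the ERR motif in this was not tested. In the authors' matrix the medians after fasting were 0.04 with the ERR motif and -0.21 without it. Members with and without the Sp1 motif were not compared.

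All 63 members were well above background on all 4 arrays. They are among the brightest genes of the liver: their median signal lay at the 96.0th percentile of all genes and 55 of the 63 were in the top 10%. Ndufa4l2, a paralog of Ndufa4, was the exception with a mean log2 signal of 7.25, and the next dimmest member was at 12.12. Ndufa4 itself was named as a complex I subunit and is now assigned to complex IV. The rule leaves out Ndufab1, Cyc1 and Atp5o, whose names are spelled otherwise. Each level is given as the log2 signal minus the log2 of the array's 75th percentile, and since probes differ in brightness, levels are compared between arrays and not between genes. With 1 array a group there is no SD, and the SE given for a difference, about 0.20, was computed from the error that the scanner software assigns to each spot, without any variation between mice. The targeted gene Dnm1l, read by 1 probe, had levels of 1.02 in Cont and 0.81 in Drp1LiKO after fasting and of 0.66 and 0.54 after refeeding. Where this probe lies relative to the deleted exons is not given in the sources used here, so it does not check the genotype.

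**Figure D1:**
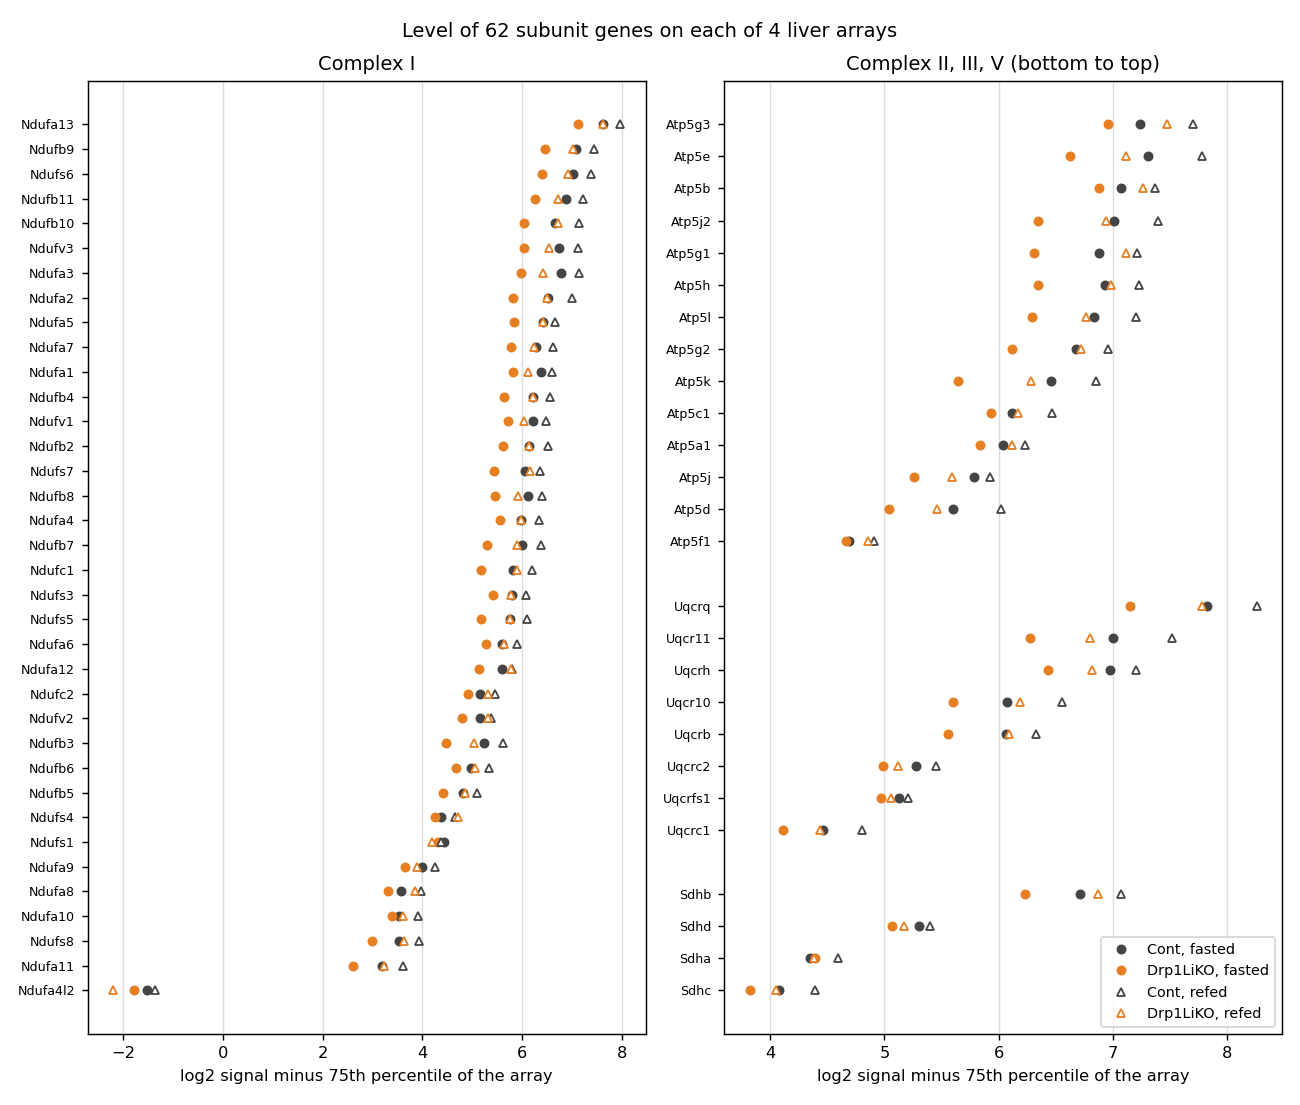
Level of 62 of the 63 subunit genes (rows, grouped by complex and sorted by mean level) on each of the 4 arrays, as log2 signal minus the 75th percentile of the array (horizontal axes, whose ranges differ between the panels). Circles are fasted and triangles refed, grey is Cont and orange Drp1LiKO, with 1 array each. In most rows the orange symbol lies to the left of the grey symbol of the same shape, by a median over all 63 of 0.51 after fasting and 0.34 after refeeding, and with scaling to the spike-ins it lies to the right.

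Relative to the other genes of the array, subunits of complexes I, III and V were lower in Drp1LiKO than in Cont liver in both feeding states, and higher with scaling to spiked-in RNA. After fasting, the median log2 difference was -0.53 for complex I, -0.49 for complex III and -0.55 for complex V, against -0.09 over 18870 genes. Complex II, with -0.24 over 4 genes, lay nearer to the other genes. It was also dimmer, with a median log2 signal of 13.8, against 14.74, 15.02 and 15.66 for complexes I, III and V. Genes other than the members with a mean log2 signal from 12 to 14 had a median difference of -0.23 after fasting. The part of brightness in the place of complex II was not tested. After refeeding the median differences were -0.36, -0.36 and -0.27 for complexes I, III and V and -0.22 for complex II, against -0.06 over all genes. In all, 62 of 63 members were below 0 after fasting, where 57.0% of all genes were, and 62 of 63 after refeeding, where 55.3% were. In the matrix normalized by the authors the same medians were -0.25, -0.17 and -0.22 after fasting, with 50 of 63 members below 0 (49.5% of all genes), and -0.21, -0.18 and -0.13 after refeeding, with 54 of 63 below 0 (48.1% of all genes). Complex II stood at 0.02 in that matrix after fasting and at -0.06 after refeeding. Members share mitochondria, probes' brightness and the same 2 arrays of a comparison, so their number is not a number of replicates. In whole liver, fewer hepatocytes and less RNA per hepatocyte cannot be told apart.

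**Figure D2:**
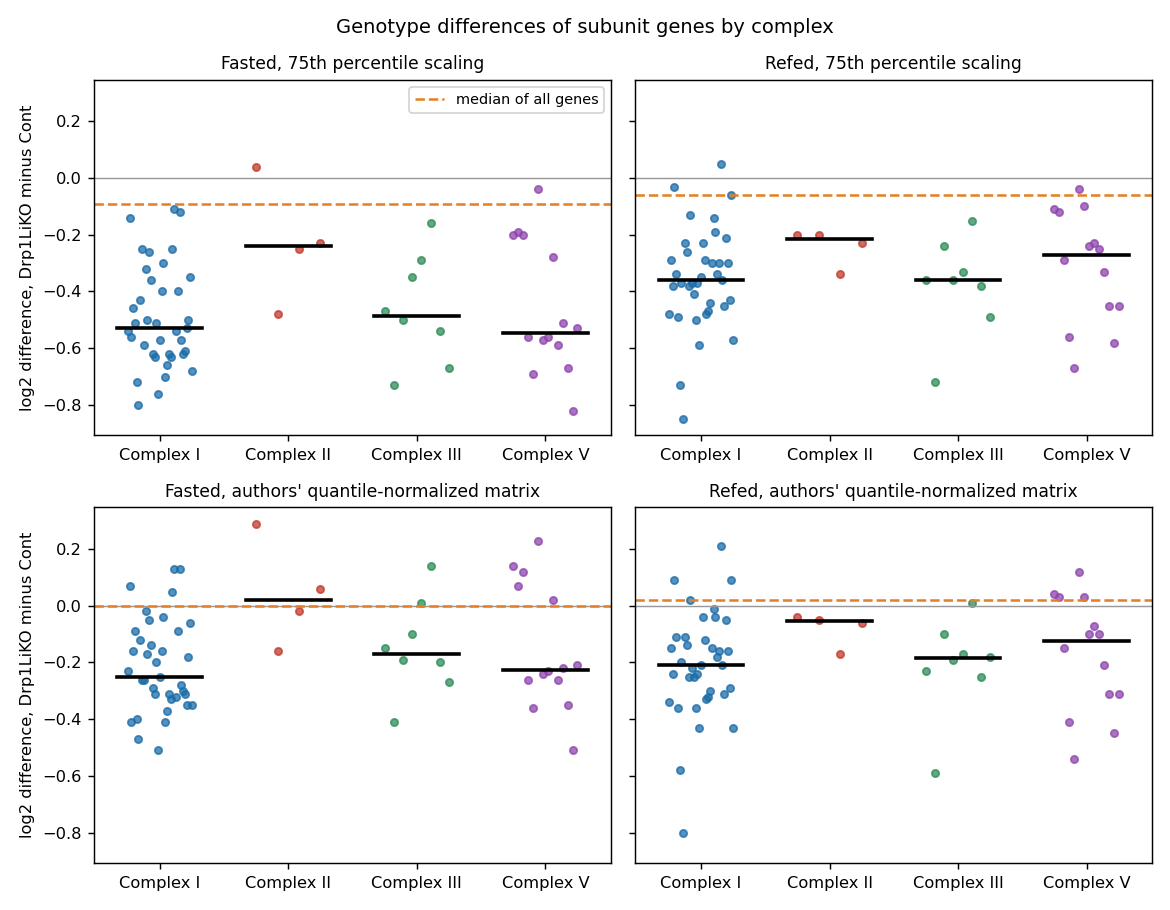
Log2 difference between Drp1LiKO and Cont (vertical axes) for each member by complex, after fasting (left) and refeeding (right), on the 75th percentile scale (top) and in the authors' normalized matrix (bottom). Points are genes, black bars are medians of a complex and the dashed line is the median of all genes. The medians of complexes I, III and V lie below the dashed line in all panels, that of complex II lies at 0.02 in the authors' matrix after fasting, and with scaling to the spike-ins all 4 medians and the dashed line lie above 0.

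The sign of these differences depends on what is held constant. RNA spiked into the samples, read by 7 probes, was lower on the Drp1LiKO array by a median of 0.78 on the log2 scale after fasting and of 0.54 after refeeding once the arrays were set to their 75th percentile, so the typical gene was brighter relative to the spike-ins in Drp1LiKO. Scaling to the spike-ins puts the median of all genes at 0.70 after fasting and 0.48 after refeeding, and the median of the 63 members at 0.28 and 0.20. Relative to all genes, however, complex I was lower after fasting by 0.23 to 0.44, complex III by 0.15 to 0.41 and complex V by 0.20 to 0.46 over the 7 scalings that were run. After refeeding the same distances were 0.10 to 0.30 for complexes I and III and 0.04 to 0.21 for complex V. Complex II ranged from -0.16 to 0.02 after fasting and from -0.16 to 0.01 after refeeding. Every value below is on the 75th percentile scale unless another is named. On the spike-in scale about 0.78 (fasted) or 0.54 (refed) would be added to each difference between genotypes.

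**Figure D3:**
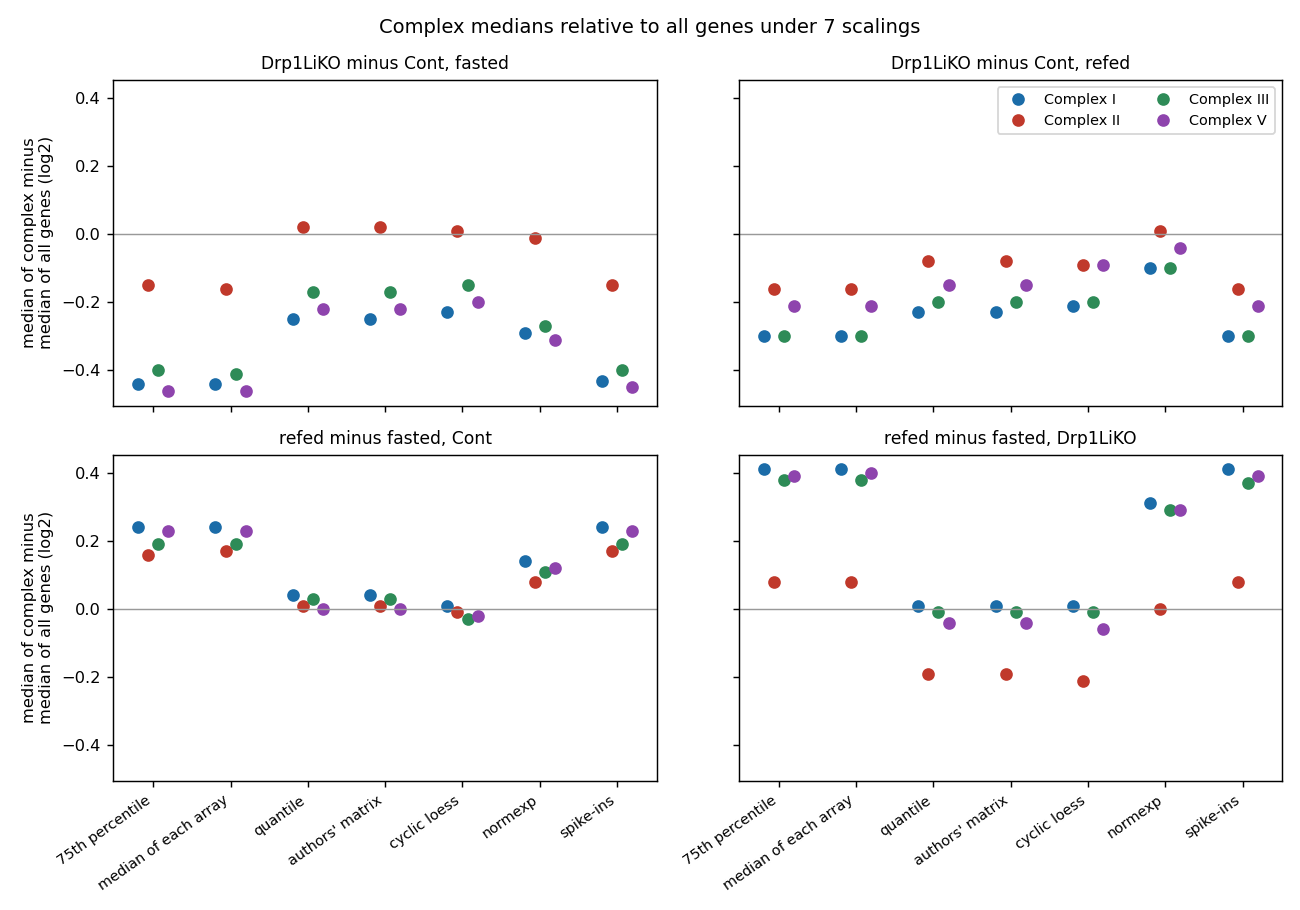
Median log2 difference of each complex minus the median of all genes (vertical axes) in the 4 comparisons (panels) under 7 scalings (horizontal axes). In the upper panels complexes I, III and V lie below 0 under each scaling and complex II crosses 0. In the lower panels all complexes lie at or above 0 under the scalings by a constant and normexp, and near 0 under quantile normalization, the authors' matrix and cyclic loess, except complex II in Drp1LiKO at -0.19 to -0.21.

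No member differed 2-fold between genotypes in either feeding state, while 4.93% of 18879 genes were at least 2-fold lower and 7.65% at least 2-fold higher in Drp1LiKO after fasting, and 5.85% and 7.38% after refeeding. At 1.5-fold, 19 members (30.2%) were lower after fasting, against 13.1% of all genes, and 5 (7.94%) after refeeding, against 14.1%. None was 1.5-fold higher (13.6% of all genes in each state). The 19 comprised 13 genes of complex I, 2 of complex III and 4 of complex V. Lower by more than 2 SE were 40 members after fasting (20.0% of all genes) and 20 after refeeding (20.1%), and in the authors' matrix 6 (15.5%) and 8 (16.3%).

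In complex I, the lowest difference after fasting was that of Ndufa3, an accessory subunit of the membrane arm. Its level was 6.78 in Cont and 5.97 in Drp1LiKO after fasting, and 7.14 and 6.41 after refeeding. These are differences of -0.80 and -0.73 with an SE of 0.20, and -0.47 and -0.58 in the authors' matrix. Both Drp1LiKO arrays were thus below both Cont arrays on the scale of these levels. How many of all genes share this order was not counted, and the order need not hold with scaling to the spike-ins. Ndufb3, another accessory subunit of the membrane arm, had levels of 5.24 and 4.48 after fasting and 5.62 and 5.03 after refeeding, with differences of -0.76 and -0.59. Here too the genotypes did not overlap on that scale, with the same limits.

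The 7 core subunits of complex I that are encoded in the nucleus, which hold the flavin and the iron-sulfur clusters, had a median of -0.50 after fasting, and the 28 accessory subunits one of -0.56. Ndufs7, next to the ubiquinone site, had levels of 6.05 and 5.44 after fasting and 6.36 and 6.16 after refeeding, so its difference was -0.61 and then -0.21. Ndufs8, which binds iron-sulfur clusters, had -0.53 and -0.30, and Ndufv1, the flavin-binding subunit that oxidizes NADH, had -0.50 and -0.43. Smaller differences were those of Ndufs3 (-0.40 and -0.30) and the iron-sulfur subunit Ndufv2 (-0.35 and -0.06). The smallest difference after fasting among those named was that of Ndufs1, the largest core subunit, with levels of 4.43 and 4.32 after fasting and 4.37 and 4.19 after refeeding. Its differences of -0.11 and -0.19 were within 1 SE. In the authors' matrix Ndufs1 stood at 0.13 and -0.04.

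The arms of complex I differed little from each other. The 16 genes of the arm that reaches into the matrix had medians of -0.50 and -0.30 in the fasted and refed comparison, and the 19 of the membrane arm -0.57 and -0.37. On the spike-in scale these medians were 0.29 and 0.24 for the matrix arm and 0.23 and 0.17 for the membrane arm. Ndufs4, an accessory subunit of the matrix arm, had levels of 4.38 and 4.26 after fasting and 4.66 and 4.72 after refeeding. It was the only member higher in Drp1LiKO after refeeding, by 0.05 with an SE of 0.20. The dim Ndufa4l2 went the other way, with levels of -1.53 and -1.78 after fasting and -1.36 and -2.21 after refeeding, the lowest difference of any member in the refed pair (-0.85, SE 0.22).

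Complex II is the smallest of the complexes and wholly encoded in the nucleus. Sdha, the flavoprotein that oxidizes succinate, had levels of 4.35 in Cont and 4.39 in Drp1LiKO after fasting and of 4.59 and 4.38 after refeeding. Its difference of 0.04 was the only one of the 63 above 0 after fasting, and after refeeding it was -0.20. Sdhb, the iron-sulfur subunit, had levels of 6.71 and 6.23, then 7.07 and 6.87, with differences of -0.48 and -0.20. The membrane anchors Sdhc (-0.25 and -0.34) and Sdhd (-0.23 and -0.23) lay between them after fasting and below both after refeeding. With an SE of 0.20, only the fasted difference of Sdhb was larger than 2 SE. It was -0.16 in the authors' matrix, and the other probe of Sdhb gave -0.23, within 2 SE.

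In complex III, Uqcr11, a small accessory subunit, had levels of 7.0 and 6.27 after fasting and 7.52 and 6.80 after refeeding. Its differences of -0.73 and -0.72 were the lowest of the complex in both states. The genotypes did not overlap on the scale of these levels, and how many of all genes share this was not counted. With scaling to the spike-ins the fasted difference of Uqcr11 lay above 0, so the order did not hold there. Uqcrfs1, the Rieske iron-sulfur protein, was at the other end, with levels of 5.13 and 4.97 after fasting and 5.21 and 5.06 after refeeding and differences of -0.16 and -0.15. The core proteins Uqcrc1 (-0.35 and -0.36) and Uqcrc2 (-0.29 and -0.33) lay between them and differed alike in both states. Uqcrq and Uqcrh, further small subunits, had -0.67 and -0.54 after fasting and -0.49 and -0.38 after refeeding.

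ATP synthase consists of the catalytic F1 head and of Fo with the stalk that hold it to the membrane. After fasting the 5 genes of the F1 head had a median of -0.20 and the 9 of Fo and the stalk one of -0.56, while after refeeding these were -0.29 and -0.25. The order of the head and the rest therefore did not hold in both states. In the authors' matrix the medians were 0.07 and -0.23 after fasting and -0.15 and -0.10 after refeeding, and on the spike-in scale 0.59 and 0.23, then 0.25 and 0.29. Atp5b, the catalytic beta subunit, had levels of 7.07 and 6.88 after fasting and 7.37 and 7.26 after refeeding, and Atp5a1, the alpha subunit, 6.04 and 5.84, then 6.23 and 6.12. Their differences lay between -0.20 and -0.11, no larger than the SE of 0.20. The third of the larger head subunits, Atp5c1 (gamma), had -0.20 and -0.29.

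The 2 small subunits of the head differed more. Atp5e (epsilon) had levels of 7.31 and 6.62 after fasting and 7.78 and 7.11 after refeeding, with differences of -0.69 and -0.67, the lowest of complex V after refeeding. Atp5d (delta) had -0.56 in both states. Among the membrane subunits, Atp5k (subunit e, which lies where ATP synthase dimers meet) had levels of 6.46 and 5.64, then 6.85 and 6.28. Its difference of -0.82 after fasting was the lowest of all 63 members, and after refeeding it was -0.58. Atp5f1 (subunit b of the peripheral stalk, Atp5pb in RefSeq) had nearly equal levels in the genotypes, 4.69 and 4.66 after fasting and 4.91 and 4.86 after refeeding.

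Subunit c, which forms the rotor ring, is made from 3 genes that encode the same mature protein. Atp5g1 had levels of 6.88 in Cont and 6.31 in Drp1LiKO after fasting and of 7.21 and 7.11 after refeeding. Atp5g2 had 6.68 and 6.12, then 6.96 and 6.72, and Atp5g3 had 7.24 and 6.96, then 7.70 and 7.47. The genotype difference thus went from -0.57 to -0.10 in Atp5g1, from -0.56 to -0.24 in Atp5g2 and from -0.28 to -0.23 in Atp5g3. The change in Atp5g1 was seen with 1 of its 2 probes: the other gave -0.34 and -0.40.

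Pooled over the complexes, subunits of the list of redox, catalytic and core proteins were less low than the rest relative to the 75th percentile. With scaling to the spike-ins they were higher than the rest. The list holds all 4 genes of complex II, with both membrane anchors, so the contrast is mixed with that between complex II and the others. Within complex I, the core and accessory medians given above lay nearer to each other after fasting. The 16 had a median of -0.32 after fasting, and the other 47 members one of -0.56. After refeeding the medians were -0.22 and -0.37. The signed order was the same under the 7 scalings: in the authors' matrix the medians were -0.04 and -0.24 after fasting and -0.06 and -0.22 after refeeding, and on the spike-in scale they were 0.47 and 0.23, then 0.32 and 0.17. The 16 were also dimmer, with a median log2 signal of 14.15 against 15.12. Across the 63 members, mean log2 signal and the difference after fasting had a Pearson's r of -0.47 and a Spearman's rho of -0.53. After refeeding these were 0.0 and -0.29. In the authors' matrix they were -0.2 and -0.33 after fasting and 0.06 and -0.27 after refeeding. The part of brightness in the difference between the 16 and the rest was not tested.

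Genes with a low difference after fasting tended to have a low one after refeeding. The fasted and the refed comparison share no array, and across the 63 members their differences correlated with Pearson's r of 0.62 and Spearman's rho of 0.69, against 0.27 and 0.48 across 18803 other genes. In the authors' matrix the coefficients were 0.68 and 0.73 for members. The other genes include many dim ones, and their coefficients were not computed within a range of brightness. Genes are not independent replicates, so these coefficients describe the set only, and the points share probe brightness. The refed difference was higher than the fasted one in 52 of 63 members, by a median of 0.13 over all members, and 11 went the other way. This depended on the scaling: it was higher in 60 of 63 with the array median and in 51 with normexp, but in 28 with quantile normalization, in the authors' matrix and with cyclic loess, and in 10 with the spike-ins. Of all genes, 53.0% were higher on the 75th percentile scale, 52.6% in the authors' matrix and 28.5% with the spike-ins. On the 75th percentile scale the largest shifts toward 0 were those of Atp5g1 and of Ndufa12, an accessory subunit of the matrix arm, with levels of 5.59 and 5.13 after fasting and 5.79 and 5.77 after refeeding and differences of -0.46 and -0.03.

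**Figure D4:**
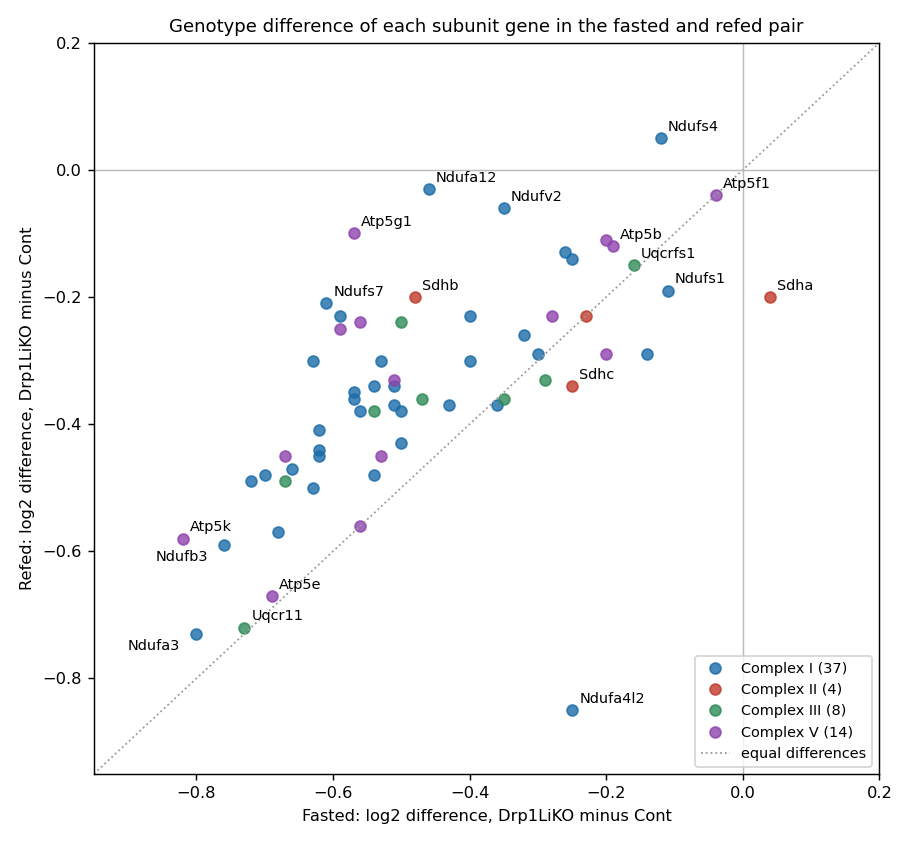
Genotype difference of each of the 63 members after fasting (horizontal axis) and after refeeding (vertical axis), as log2 Drp1LiKO minus Cont on the 75th percentile scale, colored by complex, with the line of equal differences dotted. Most points lie above the dotted line and below 0 on both axes, and Sdha, Ndufs4 and Ndufa4l2 stand apart. With scaling to the spike-ins every point moves up by about 0.54 and right by about 0.78, which leaves 10 points above the dotted line. In the authors' matrix 28 lie above it.

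A test across the feeding states was possible only under an additive model, which takes any interaction for error and has 1 residual degree of freedom. In limma, with genotype and feeding state as terms fitted to the 16662 genes that 2 or more arrays measured well above background, the genotype coefficient was below 0 for all 63 members, with a median of -0.42. No member, and 0 of 16662 genes (0%), passed a Benjamini-Hochberg adjusted p of 0.05. The lowest adjusted p among members was 0.106 (Ndufa3, coefficient -0.77, SE 0.14), followed by Uqcr11 with 0.108 (-0.73) and Atp5e with 0.109 (-0.68). At an unadjusted p under 0.05, 28 members were lower and none higher, which is 44.4% of members, against 28.4% of all genes in either direction. The 28 became 6 with quantile normalization and in the authors' matrix and 4 with cyclic loess, all lower. With the spike-ins none was lower and 5 were higher. Over all genes, 4290 of 16662 had such a p in either direction with quantile normalization and 4280 of 16670 in the authors' matrix. The number was 4360 of 16662 with cyclic loess and 9030 of 16662 with the spike-ins. Under each of these scalings the share of members was thus below that of all genes. On the spike-in scale the median coefficient of the members was 0.25, with 5 members below 0. When only genes well above background on all 4 arrays were tested, 2 members passed, Ndufa3 (adjusted p 0.045) and Uqcr11 (adjusted p 0.0469), in limma, where 8.55% of the 14388 genes passed.

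Refeeding was accompanied by higher levels of most subunits relative to the 75th percentile. In the authors' quantile-normalized matrix the medians were near 0, with a smaller majority of members above 0. In Cont liver the median log2 difference between refed and fasted was 0.34 over the 63 members (0.11 over all genes), and in Drp1LiKO liver it was 0.48 (0.08 over all genes). By complex it was 0.35, 0.27, 0.30 and 0.34 for I, II, III and V in Cont and 0.49, 0.16, 0.46 and 0.47 in Drp1LiKO. In the authors' matrix the medians over members were 0.05 and 0.03, and on the spike-in scale -0.14 and -0.25. Above 0 were 62 members in Cont (59.7% of all genes) and 60 in Drp1LiKO (55.7%), and in the authors' matrix 44 (53.0%) and 37 (52.3%). No member differed 2-fold on refeeding. Of all genes, 3.88% were at least 2-fold higher and 5.03% lower in Cont, and 5.43% and 6.92% in Drp1LiKO. At 1.5-fold, 0 members were higher in Cont (8.69% of all genes) and 17 in Drp1LiKO (27.0% of members, against 16.9% of all genes), and none was lower (10.2% and 14.4% of all genes). Higher by more than 2 SE were 10 members in Cont (14.6% of all genes) and 41 in Drp1LiKO (23.3%), and in the authors' matrix 0 (10.3%) and 2 (17.6%). In limma no member passed for feeding state (0% of all genes), with 26 members higher and none lower at an unadjusted p under 0.05 (26.5% of all genes in either direction) and a lowest adjusted p of 0.168. The 26 became 0 with quantile normalization, in the authors' matrix and with cyclic loess, and with the spike-ins 2 were lower. Over all genes, 3473 of 16662 had such a p in either direction with quantile normalization and 3458 of 16670 in the authors' matrix. The number was 3493 of 16662 with cyclic loess and 7337 of 16662 with the spike-ins. Under each of these scalings the share of members was thus below that of all genes. At least 2-fold lower on refeeding in Drp1LiKO with the spike-ins was 1 member, where 26.4% of all genes were.

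The highest differences on refeeding within a complex in Cont were those of the membrane arm subunit Ndufb10 in complex I (0.49, levels 6.65 and 7.14), Sdhb in II (0.36), Uqcr11 in III (0.52) and Atp5e in V (0.46, as in Atp5g3). In Drp1LiKO they were those of Ndufc1 (0.72, levels 5.18 and 5.90) and Ndufs7 (0.72) in I, Sdhb (0.64) in II, Uqcrq (0.63) in III and Atp5g1 (0.80) in V. The value of Atp5g1 depends on the probe, since its other probe, also well above background on all 4 arrays, gave -0.32 in Drp1LiKO and -0.26 in Cont, where the probe used gave 0.33. Ndufs1 was the only member below 0 in Cont, by 0.05, and it was below 0 in Drp1LiKO too (-0.13). Its difference in the authors' matrix was -0.25 in Cont and -0.43 in Drp1LiKO. Uqcrfs1 (0.07 and 0.09) and Sdhd (0.10 and 0.10) had small differences, and Atp5j, the coupling factor F6 of the stalk, had the smallest difference of complex V in Cont (0.14).

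Since the members are bright, they were set beside other genes of the same brightness. After fasting, Drp1LiKO minus Cont had a median of 0.03 for other genes with a mean log2 signal from 6 to 8, and of -0.29 for 1028 other genes from 14 to 16. The 43 members from 14 to 16 had a median of -0.56. After refeeding the medians in that range were -0.08 for other genes and -0.36 for members. From 12 to 14 the 14 members had -0.28 after fasting, against -0.23 for other genes, and -0.29 after refeeding, against -0.14. From 16 to 19, the brightest range, the 5 members had -0.51 against -0.43 after fasting and -0.34 against -0.29 after refeeding. In the 2 refeeding comparisons, members from 14 to 16 lay close to other genes as bright. The medians there were 0.34 and 0.36 in Cont and 0.52 and 0.56 in Drp1LiKO, for members and others. From 12 to 14 they were 0.29 and 0.22 in Cont and 0.33 and 0.29 in Drp1LiKO. From 16 to 19 they were 0.44 and 0.35 in Cont and 0.51 and 0.42 in Drp1LiKO. The contrast with the genotype comparisons was thus widest from 14 to 16.

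**Figure D5:**
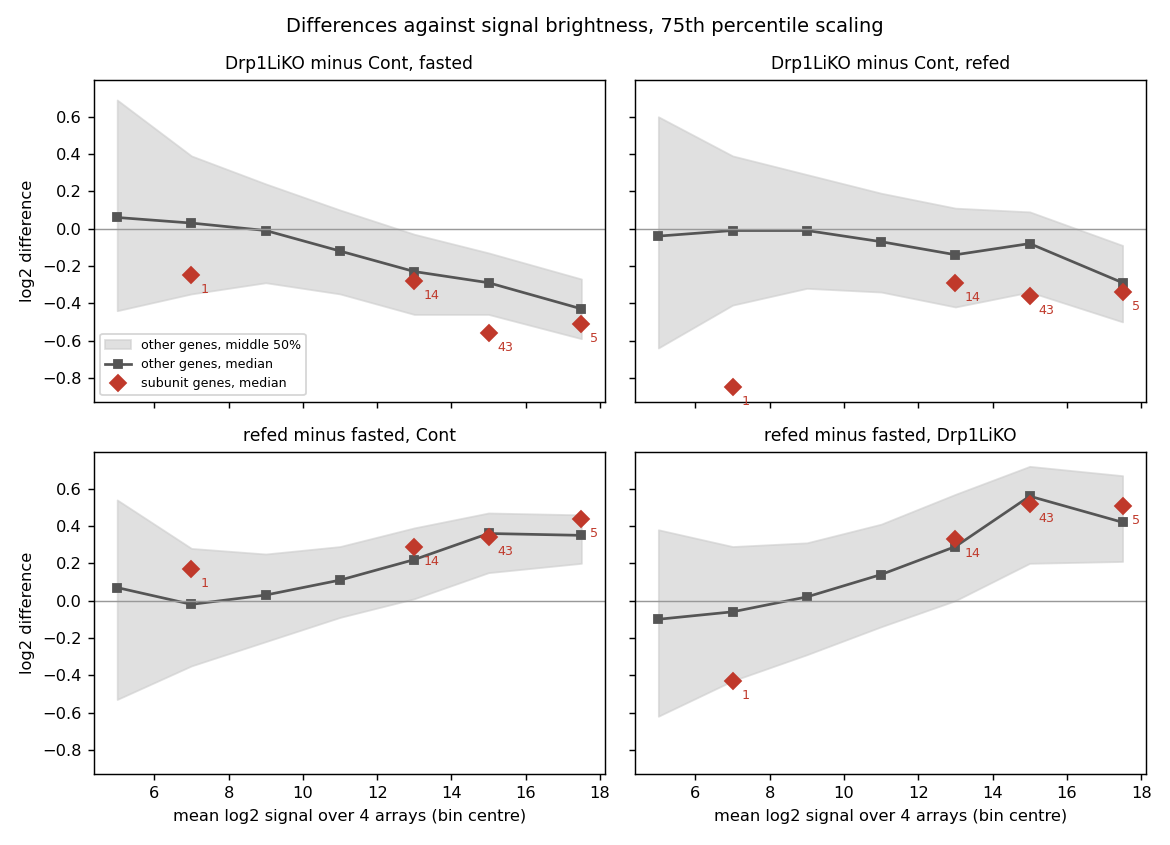
Median log2 difference on the 75th percentile scale (vertical axes) against the mean log2 signal over the 4 arrays (horizontal axes, bin centres) for the 4 comparisons. Grey squares and shading are the median and the middle 50% of genes other than the members, red diamonds are the medians of members, and the small numbers give the members in a bin. In the upper panels the diamond of 43 members at 15 lies below the grey line, and in the lower panels the diamonds for the 3 brightest bins lie on or next to it. With scaling to the spike-ins, both move up by about 0.78 (fasted) and 0.54 (refed) in the upper panels and down in the lower ones.

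Other nuclear genes of the respiratory chain behaved much like the members. The 11 genes of complex IV, listed as a comparator, had medians of -0.58 after fasting and -0.40 after refeeding (-0.22 and -0.17 in the authors' matrix). Mitochondrial ribosomal proteins, 76 genes, lay nearer to all genes, with -0.31 and -0.12 (-0.12 and -0.01 in the authors' matrix). On the spike-in scale these medians were 0.21 and 0.14 for complex IV and 0.48 and 0.42 for the ribosomal proteins. Of 28 further subunits in the list, 6 were on the array, all well above background on all 4 arrays. Cyc1, the cytochrome c1 of complex III, had -0.41 and -0.28, and Atp5o, of the peripheral stalk, had -0.40 and -0.30. The exception was Atp5s, also called coupling factor B, which was dim, with levels of -2.05 and -1.61 after fasting and -2.15 and -1.46 after refeeding, and higher in Drp1LiKO by 0.44 and 0.68.

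Assembly factors build the complexes and are not part of them. Of 18 with a probe, 16 passed background on each of the 4 arrays, and their median of -0.10 after fasting and -0.04 after refeeding was that of all genes. Bcs1l, which inserts the Rieske protein into complex III, had the lowest differences, -0.61 and -0.44 (levels 2.40 and 1.79, then 2.84 and 2.41). Ecsit (-0.45 and -0.23) and Ndufaf1 (-0.40 and -0.34), both of complex I, came next. Ndufaf4 and Sdhaf1, which assist complexes I and II, were higher after refeeding, by 0.63 and 0.62 in Cont and 0.94 and 0.83 in Drp1LiKO, and by 0.51 to 0.80 in the authors' matrix. On the spike-in scale the assembly factors had medians of 0.69 and 0.50 between genotypes and of -0.26 and -0.50 on refeeding. Lyrm7 and Atpaf1 were not well above background on any array.

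The transcriptional regulators of respiratory genes, 13 on the array, had medians of -0.15 and -0.05 between genotypes. Ppargc1a, which encodes the coactivator PGC-1alpha induced by fasting, had levels of -0.61 and -0.48 after fasting in Cont and Drp1LiKO and of -1.62 and -1.33 after refeeding. It was therefore lower after refeeding by 1.02 in Cont and by 0.85 in Drp1LiKO, while its genotype differences were 0.13 and 0.30. Ppargc1b, its homolog, was dim and not well above background on the refed Cont array, and in Drp1LiKO it was lower after refeeding by 0.79 with an SE of 0.33. Esrra, the nuclear receptor ERRalpha, had levels of 3.04 and 2.57 after fasting and of 3.24 and 3.16 after refeeding, with genotype differences of -0.47 and -0.09. Nrf1 went from -0.35 to 0.04, and Tfb2m, a mitochondrial transcription factor, had -0.32 and -0.47. No gene of these lists that was well above background differed 2-fold between genotypes.

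Probes of a gene mostly gave like values. For the 24 genes with several probes well above background on all 4 arrays, the range of the genotype difference between probes had a median of 0.08 after fasting and 0.09 after refeeding, and none differed in sign. On refeeding, the probes of Atp5g1 had opposite signs, as given above. The widest range after refeeding was that of Atp5g1 (0.30). Ndufa3 and Ndufb5 each had a further probe that was not well above background on all arrays and had the opposite sign, 0.06 after fasting for Ndufa3 and 0.20 for Ndufb5, whose probe used here gave -0.40. Of the 100 probes, 7 have a position (mm9) that is not on the chromosome of the gene, among them probes of Atp5k on unplaced sequence. Whether sequence copies lie there was not checked. Of the 7, 2 were the ones used: Atp5j2 on chromosome 9 and Atp5l on X. Their probes on the chromosome of the gene gave -0.56 and -0.45 for Atp5j2, and -0.54 to -0.46 and -0.42 to -0.37 for Atp5l. Signal from any copies cannot be told apart.

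Markers of the liver's cell types also differed between the arrays. All 8 hepatocyte markers were well above background on every array, and their summed level, in log2, was 11.27 in Cont and 10.80 in Drp1LiKO after fasting and 11.54 and 11.01 after refeeding. Their median difference between genotypes was -0.24 after fasting and -0.44 after refeeding, 0.13 and -0.11 in the authors' matrix, and 0.55 and 0.10 on the spike-in scale. Of the 8, 5 were lower in both states, among them albumin (Alb), with levels of 9.76 and 9.24, then 10.06 and 9.51. Cps1 (0.60 and 1.24) and Tat (1.04 and 0.98) were higher in both, and Pck1 had 0.46 and -0.51. The summed level is set mostly by the brightest probes. The 7 macrophage markers summed to 6.18 and 6.55 after fasting and to 6.39 and 7.33 after refeeding. Of 6 muscle markers, all were well above background on the fasted Cont array, where they summed to 1.67, against -2.87, -0.85 and -2.71 on the fasted Drp1LiKO, refed Cont and refed Drp1LiKO arrays, and Ckm, Acta1 and Tnnt3 were above background only there. The 7 adipocyte markers summed to 3.47 and 1.64 after fasting and to 5.47 and 1.99 after refeeding, and the defining ones Adipoq, Plin1 and Lep were not well above background on any array. Cfd (-5.07 and -6.27) and Cidea (-3.12 and -6.10) differed most between genotypes among those on all arrays, while Fabp4 had 0.01 and 0.31. Of the other lists, the medians after fasting and refeeding were -0.83 and 0.04 for red blood cell markers, -1.04 and 0.02 for neutrophil, 0.81 and -0.02 for stellate and fibroblast, 0.52 and 0.03 for endothelial, 0.77 and 0.73 for cholangiocyte and 0.51 and 0.30 for lymphocyte markers. The part of these cells in the differences of the subunits was not tested.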

How the data were processed

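Total liver RNA was labeled with 1 dye and hybridized to 4 arrays on 1 slide, read in 1 scan. The deposited scanner files hold the intensity of each spot, background-subtracted and detrended within the array by the authors with Agilent Feature Extraction (10.7.1.1 per the file headers, 9.5.1.1 per the labels), with probe positions on mm9. The labels and the methods name different array designs and RNA kits. The authors also deposited a matrix of quantile-normalized intensity on a linear scale; 99.6% of its values lay within 0.01 log2 of a quantile normalization of the mean spot signals computed here. The methods behind that matrix are not given in the sources used here.

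Here, the log2 of the processed signal minus the log2 of the 75th percentile of the array's gene spots was used. Control and outlier spots were left out, repeated spots were averaged, and 1 probe stood for each gene: that well above background on most arrays, then the brightest. The SE of a difference was computed from the spot errors of the scanner software, and the number of arrays limits the precision. Spots well above background made up 48.691 to 58.161% of an array, none was saturated, and repeated spots had an SD of 0.0919 to 0.1264 (log2). With 1 array a group, no comparison of groups was tested. The additive model used limma 3.58.1 (R 4.3.3), tested on simulated data. Named genes are the redox, catalytic and core subunits, the highest and lowest member of each complex in each comparison, the subunit c genes, and members whose probes differed in sign; other genes were named after their values were seen. 1 member enters the counts and medians but is not reported here by itself. The members and gene lists were chosen with earlier results of these data known. Alternatives were other scalings (array median, quantile, cyclic loess, normexp, the authors' matrix), filters, probes and thresholds; scaling to spike-ins and probes on the gene's chromosome were added after seeing the data. Promoters are RefSeq windows (GRCm38.p6).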

Additional observations from a re-analysis of the deposited data

Results flagged for a closer look

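In 3 members, effects of opposite sign were seen under the same contrast, and the difference between them was not tested because each group is 1 array. The genotype difference of Ndufs4, an accessory subunit of complex I, was -0.12 after fasting and 0.05 after refeeding. That of Sdha, the flavoprotein of complex II, was 0.04 after fasting and -0.20 after refeeding. The difference of Ndufa4l2 on refeeding was 0.17 in Cont and -0.43 in Drp1LiKO, and this was the dimmest member. The values of Ndufs4 and Sdha are no larger than the SE of 0.20.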

How the results depend on the processing

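No paired analysis was possible because each group has 1 array, and for the same reason no array could be left out. The medians of complexes I, II, III and V are given in that order. After fasting, the genotype medians were -0.25, 0.02, -0.17 and -0.22 with quantile normalization and in the authors' matrix, -0.23, 0.01, -0.15 and -0.20 with cyclic loess, and 0.27, 0.55, 0.30 and 0.25 with scaling to the spike-ins. After refeeding, complex III was at -0.18 in the first 3 of these, complexes I and V were at -0.19 and -0.07 with cyclic loess, and the spike-ins gave 0.18, 0.32, 0.18 and 0.27. On refeeding in Cont, the medians were 0.06, 0.03, 0.05 and 0.02 with quantile normalization and in the authors' matrix, 0.03, 0.01, -0.01 and -0.0039 with cyclic loess, and -0.13, -0.20, -0.18 and -0.14 with the spike-ins. In Drp1LiKO they were 0.04, -0.16, 0.02 and -0.01, then 0.02, -0.20, -0.0028 and -0.05, and -0.23, -0.56, -0.27 and -0.25. The spike-in scale differs from the 75th percentile scale by 1 constant for every gene of a comparison, and that constant was measured with 7 probes. The cause of the shifts between scalings was not tested. With a threshold of 1.5-fold in place of 2-fold, 19 members were lower in Drp1LiKO after fasting, 5 were lower after refeeding and 17 were higher on refeeding in Drp1LiKO, each against 0. With the spike-ins, 1 member was at least 2-fold lower on refeeding in Drp1LiKO, where 26.4% of all genes were. In limma, 2 members passed for genotype when 14388 genes well above background on all 4 arrays were tested, against 0 of the 16662 tested otherwise; over all genes the number passing went from 0 to 1230 (8.55%), and it was 338 with the array median, 507 with normexp, 484 with an intensity trend, 4811 with the spike-ins and 1 with the term alone. For feeding state 16 genes passed with that filter, none of them a member.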
